A study of Mus musculus with 6 samples.

Results

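The genes described here encode the major histocompatibility complex (MHC) class I molecule and the machinery that loads it with peptide. They are 10 named genes, chosen by name, of the 33000 genes in the count table. They comprise the heavy chains H2-K1, H2-D1 and H2-T23, the shared light chain B2m, the peptide transporter Tap1 and Tap2, the loading factors Tapbp and Tapbpl, the trimming peptidase Erap1 and the transcriptional activator Nlrc5. They were measured by TruSeq mRNA sequencing of frontal cortex from 3-month-old mice, 3 homozygous for the GFAP-IL6 transgene and 3 wild-type (WT). The authors give C57BL/6 as the strain of the WT mice, and their text does not state that of the GFAP-IL6 mice. In GFAP-IL6 mice, the Gfap promoter drives IL6, a cytokine that signals through STAT3, mainly in astrocytes, so its output follows that promoter and not a natural trigger. Replicates were separate mice, 1 library each. The series served as the standard-protocol reference for a pooled sequencing method, and the comparison asks which class I genes differ between the genotypes.

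The class I molecule is a heavy chain paired with beta-2 microglobulin, and it shows short peptides from inside the cell to CD8 T cells and natural killer cells. Peptides are cut in the cytosol by the proteasome, pumped into the endoplasmic reticulum (ER) by the TAP transporter, trimmed there by Erap1 and fitted into the groove with the help of tapasin. Healthy neurons and glia are known for low class I levels, microglia and endothelial cells carry more, and interferons raise the pathway through IRF factors, NF-kB and Nlrc5.

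Each library held between 7.56 and 16.9 M counts (M for mega), and every GFAP-IL6 library (7.56 to 11.1 M) was shallower than every WT library (11.6 to 16.9 M). Levels between libraries are given as CPM, the counts per 1 M counts of the library after the TMM scaling of edgeR. A floor of 3 counts was worth 0.178 to 0.397 CPM and covers counting error only. The transgene product was checked first, and Il6 was counted 0, 2 and 0 times in WT replicates 1 to 3, and 12, 10 and 24 times in GFAP-IL6 replicates 1 to 3. Gfap, whose product is an intermediate filament of astrocytes, was at 94.5 ± 24.8 CPM in WT and 678 ± 179 CPM in GFAP-IL6 (SD, n = 3 each). A pair of WT libraries stood apart by markers of neighbouring tissue, with 591 CPM of choroid plexus markers in WT replicate 3 against 3.14 to 53.6 CPM in the others, and 340 CPM of striatal markers in WT replicate 2 against 148 to 198 CPM. Where leaving either out changed the printed call of a named gene or moved a printed fold change by over 1.5 times, the value without it is given. The 1.5 times refers to the fold change itself and not to its log2. In bulk tissue, fewer cells of a type and less RNA per cell cannot be told apart.

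Promoter sequence in the RefSeq tables (GRCm38.p6, 250 bases before to 50 after a start) covered 7 of the 10 genes in 8 windows, and not Tap2, Tapbpl or Nlrc5. The H2-K1 and H2-D1 windows are shown because these genes had the lowest adjusted p of the 10. They are also shown as the only windows of the 7 genes with any of the letters in the spacings searched. The H2-K1 window lies at chr17:34000298-34000597 on the minus strand and the H2-D1 window at chr17:35262844-35263143 on the plus strand. Capitals mark first the NF-kB type letters and then the ISRE type letters, named after the interferon-stimulated response element.

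H2-K1: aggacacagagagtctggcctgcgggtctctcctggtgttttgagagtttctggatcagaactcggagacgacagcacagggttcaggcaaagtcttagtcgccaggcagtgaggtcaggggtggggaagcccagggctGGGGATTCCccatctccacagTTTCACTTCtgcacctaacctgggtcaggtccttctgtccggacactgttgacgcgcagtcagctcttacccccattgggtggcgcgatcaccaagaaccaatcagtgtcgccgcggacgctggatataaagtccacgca
H2-D1: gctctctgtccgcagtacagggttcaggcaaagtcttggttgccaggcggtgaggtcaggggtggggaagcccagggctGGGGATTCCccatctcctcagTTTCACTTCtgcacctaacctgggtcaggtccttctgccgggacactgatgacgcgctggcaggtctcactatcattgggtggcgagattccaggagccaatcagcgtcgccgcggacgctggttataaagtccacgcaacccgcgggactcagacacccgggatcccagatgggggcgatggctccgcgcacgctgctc

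Both windows hold GGGGATTCC followed by TTTCACTTC, with 12 bases between them. In H2-K1 the first lies 111 and the second 90 bases before the start. In H2-D1 they lie 171 and 150 bases before it. A second RefSeq start of H2-K1, 14 bases away, has the same letters. Aligned on these letters without gaps, the windows were identical at 176 of 240 positions (73.3%), and their longest identical run was 47 bases. Both strands were searched for GGGNNTTCC (NF-kB type, in 5.82% of all 32851 RefSeq promoter windows), GAANNGAAA (ISRE type, 7.52%) and TTCNNNGAA (STAT type, 8.30%). The NF-kB and ISRE letters stood together in 137 windows (0.417%). The windows of B2m, Tap1, Tapbp, Erap1 and H2-T23 held none of the letters in the spacings searched, and the STAT type letters were in none of the 7 genes. Wider spacings of the ISRE and NF-kB type letters were not searched, and no background was counted for them. ISRE type letters so spaced stand in the windows of B2m (gaaactgaaa), Erap1 (tttcactttc) and H2-T23 (tttctctttc), in Erap1 and H2-T23 as the reverse complement. The B2m window also holds NF-kB type letters so spaced (ggaaagtccc), as the reverse complement. Letters of both types are therefore not limited to H2-K1 and H2-D1. A match is a description of letters only, and no binding was measured.

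Among the 10 genes, H2-K1, H2-D1 and Nlrc5 rose in GFAP-IL6 cortex and none fell. H2-K1 was 1.82-fold and H2-D1 1.66-fold higher by the ratio of mean CPM, and Nlrc5 was 2.68-fold higher from a very low level. All 10 passed the filter on low counts, so the counts below are over the whole set. At an adjusted p below 0.05 by edgeR, 3 of 10 were higher in GFAP-IL6, against 2.65% of the 15341 genes tested, and 0 were lower, against 0.209%. Nlrc5 alone of the 10 also had a log2 fold change over 1, against 1.36% of all genes. At an unadjusted p below 0.05 by edgeR, 7 were higher (background 11.1%) and 0 lower (background 1437 of the 15341 genes). In 6 every GFAP-IL6 library lay above every WT library (background 13.8%). DESeq2 called 4 higher, adding B2m. The median log2 fold change of the 10 was 0.44, beside -0.0038 over all genes tested, and 9 were positive. Their summed level was 192 to 227 CPM in WT and 279 to 316 CPM in GFAP-IL6. Without WT replicate 3 the count called was 2, and without WT replicate 2 it was 5.

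**Figure D1:**
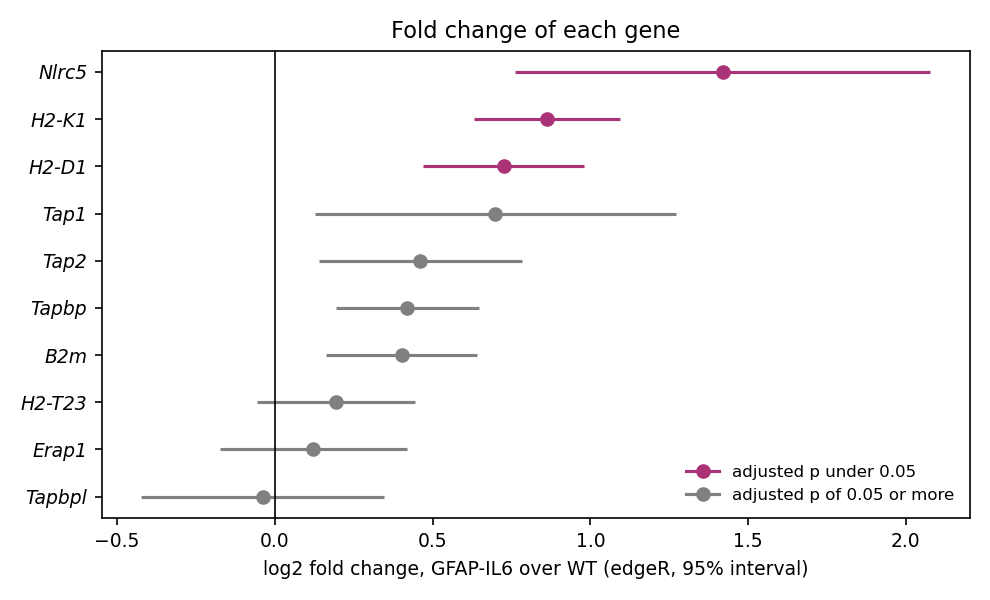
Log2 fold change of each gene, GFAP-IL6 over WT (x axis, edgeR), with bars for the 95% interval and purple for an adjusted p under 0.05. H2-K1, H2-D1 and Nlrc5 are purple, and the intervals of H2-T23, Erap1 and Tapbpl cross 0.

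The heavy chains hold the peptide and decide which peptides can be shown. H2-K1 (ENSMUSG00000061232.13, chromosome 17, 33996017 to 34000347, minus strand, GRCm38) encodes the classical heavy chain K. It was at 16.9, 19.7 and 19.7 CPM in WT replicates 1 to 3 and at 32.3, 32.5 and 38.0 CPM in GFAP-IL6 replicates 1 to 3. The groups were well apart, since the lowest GFAP-IL6 library exceeded the highest WT library by more than the range of either group. The log2 fold change was 0.86 ± 0.11 (SE, 95% interval 0.63 to 1.09), at an edgeR adjusted p of 0.000529. All 13 alternatives called H2-K1, with adjusted p up to 0.00692.

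H2-D1 (ENSMUSG00000073411.9, chromosome 17, 35262730 to 35267499, plus strand) encodes the classical heavy chain D. It was at 26.2, 28.9 and 34.8 CPM in WT and at 44.2, 50.3 and 55.0 CPM in GFAP-IL6. The groups did not overlap, and the highest WT library was WT replicate 3. H2-D1 had a log2 fold change of 0.72 ± 0.12 (SE, 0.47 to 0.98), at an edgeR adjusted p of 0.00385. It was called in all 13 alternatives, and least firmly without GFAP-IL6 replicate 3 (adjusted p = 0.0460).

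H2-T23 (ENSMUSG00000067212.8, chromosome 17, 36029773 to 36032855, minus strand) encodes Qa-1, a nonclassical heavy chain read by inhibitory receptors of natural killer cells. It was at 17.1, 18.1 and 15.9 CPM in WT and at 17.3, 21 and 20.5 CPM in GFAP-IL6. The groups overlapped, with GFAP-IL6 replicate 1 inside the WT range. H2-T23 had a log2 fold change of 0.19 ± 0.12 (SE, -0.06 to 0.45), at an edgeR adjusted p of 0.355. Class I heavy chains resemble each other, and 9.63% of the 50-base stretches of H2-K1 transcripts, 12.8% of H2-D1 and 14.5% of H2-T23 also occurred in transcripts of another gene. Counts of these genes are uncertain at least to that extent, and only uniquely aligned reads had been counted. Whether the strain differed between the groups, and with it the alignment of these genes, was not tested.

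B2m (ENSMUSG00000060802.8, chromosome 2, 122147686 to 122153083, plus strand) encodes the light chain that every class I heavy chain needs to reach the surface. It was at 75.0, 105 and 91.7 CPM in WT and at 115, 122 and 123 CPM in GFAP-IL6. The groups did not overlap, though WT replicate 2 lay closer to the GFAP-IL6 libraries than to WT replicate 1. B2m had a log2 fold change of 0.40 ± 0.11 (SE, 0.16 to 0.64) and missed the threshold in edgeR (adjusted p = 0.0791). Without WT replicate 2 the log2 fold change was 0.52 (adjusted p = 0.00272), and with all libraries DESeq2 gave an adjusted p of 0.0289. With any other library left out the log2 fold change was 0.29 to 0.43, and the adjusted p by edgeR was 0.0700 without WT replicate 1 and at most 0.314, without GFAP-IL6 replicate 3. None of the 50-base stretches of B2m occurred in another gene.

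**Figure D2:**
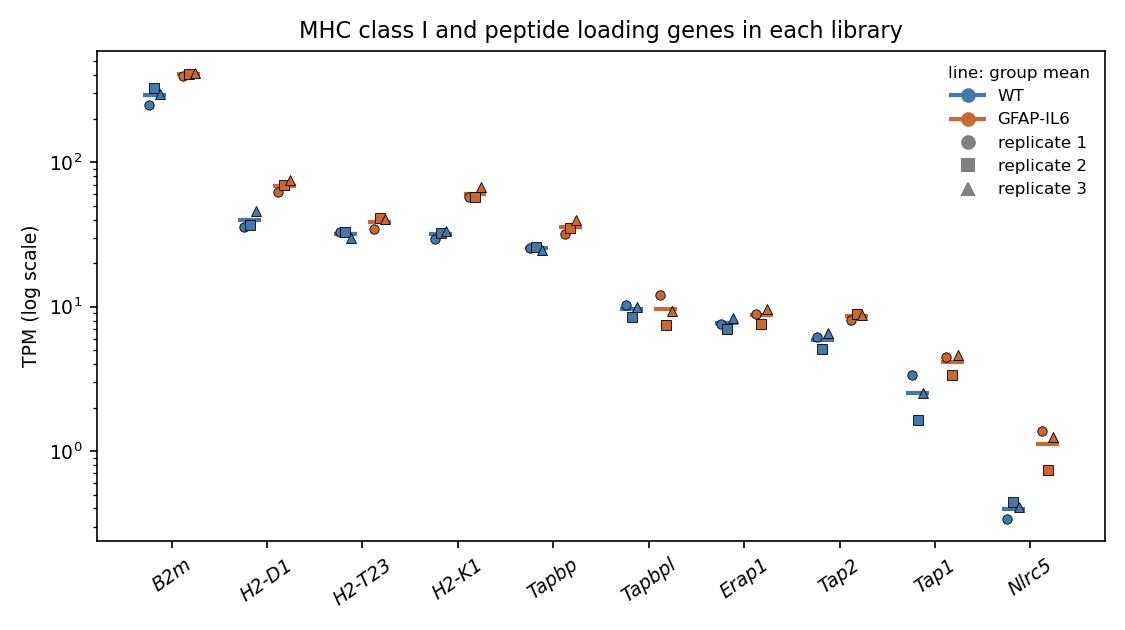
Level of each gene in every library, in TPM on a log axis, with WT and GFAP-IL6 libraries as points and group means as short lines. B2m lies far above the heavy chains in both groups, and Nlrc5 lies lowest.

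Tap1 and Tap2 pair up as the ATP-driven pump that moves peptides into the ER, and their genes lie close together on chromosome 17. Tap1 (ENSMUSG00000037321.15, chromosome 17, 34187553 to 34197225, plus strand) was at 3.48, 1.79 and 2.70 CPM in WT and at 4.48, 3.43 and 4.69 CPM in GFAP-IL6. GFAP-IL6 replicate 2 fell just under WT replicate 1, so the groups overlapped. Its log2 fold change of 0.70 ± 0.26 (SE, 0.13 to 1.27) was about as large as that of H2-D1, but its interval was wider, on 26 to 50 counts a library (edgeR adjusted p = 0.172).

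Tap2 (ENSMUSG00000024339.10, chromosome 17, 34203527 to 34216321, plus strand) was at 7.40, 6.50 and 8.10 CPM in WT and at 9.41, 10.6 and 10.4 CPM in GFAP-IL6. The groups did not overlap. Tap2 had a log2 fold change of 0.46 ± 0.15 (SE, 0.14 to 0.78), at an edgeR adjusted p of 0.120. Genes on the opposite strand overlapped 18.5% of the exon bases of Tap2 and 3.87% of those of Tap1, and the strand setting of the counting is not given in the sources used here.

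Tapbp encodes tapasin, which holds the empty heavy chain at the transporter. Tapbp (ENSMUSG00000024308.12, chromosome 17, 33915899 to 33929292, plus strand) was at 25.9, 28.0 and 25.6 CPM in WT and at 31.5, 35.1 and 40.0 CPM in GFAP-IL6. No WT library reached the lowest GFAP-IL6 library. The difference on the log2 scale was 0.42 ± 0.10 (SE, 0.19 to 0.65), just short of the threshold in edgeR (adjusted p = 0.0521). It was 0.0250 without WT replicate 2 and 0.0455 without GFAP-IL6 replicate 1, and 0.281 without GFAP-IL6 replicate 3. Opposite-strand genes overlapped 24.9% of its exon bases.

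Tapbpl (ENSMUSG00000038213.7, chromosome 6, 125223933 to 125231860, minus strand) encodes the tapasin relative TAPBPR, a peptide editor that works away from the transporter. It was at 8.45, 7.46 and 8.48 CPM in WT and at 9.68, 6.07 and 7.59 CPM in GFAP-IL6. The GFAP-IL6 libraries spread on both sides of the WT libraries. The log2 fold change was -0.04 ± 0.18 (SE, -0.42 to 0.35) at an edgeR adjusted p of 0.924, and it was 0.10 without GFAP-IL6 replicate 2. It was -0.10 without WT replicate 2 and -0.01 without WT replicate 3.

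Erap1 (ENSMUSG00000021583.6, chromosome 13, 74639568 to 74693201, plus strand) encodes the ER aminopeptidase that trims peptides to the length of the groove. It was at 10.7, 10.4 and 12.1 CPM in WT and at 12.1, 10.6 and 13.4 CPM in GFAP-IL6. The groups overlapped. Erap1 had a log2 fold change of 0.12 ± 0.14 (SE, -0.17 to 0.42), at an edgeR adjusted p of 0.640, so that an increase of the size of H2-K1 lay outside its interval. The same held for H2-T23 and Tapbpl. The log2 fold change of Erap1 was 0.07 without WT replicate 2 and 0.19 without WT replicate 3. Cast, on the opposite strand, overlapped 11.5% of the exon bases of Erap1.

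Nlrc5 encodes the NOD-like protein that acts with promoter-bound factors to switch on class I genes. Nlrc5 (ENSMUSG00000074151.10, chromosome 8, 94434356 to 94527272, plus strand) collected 10, 20 and 17 reads in the WT libraries against 38, 14 and 28 in the GFAP-IL6 libraries. This was 0.871, 1.19 and 1.07 CPM in WT and 3.41, 1.85 and 3.13 CPM in GFAP-IL6. The groups did not overlap, and GFAP-IL6 replicate 2 was nearest to the WT libraries. The log2 fold change was 1.42 ± 0.30 (SE, 0.76 to 2.08), the highest of the 10, at an edgeR adjusted p of 0.0234. The adjusted p was 0.0682 without WT replicate 3, 0.144 without GFAP-IL6 replicate 1, 0.154 without GFAP-IL6 replicate 3 and 0.0915 with every library thinned to the smallest.

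Levels were compared between genes per length, as TPM. In WT cortex, B2m was highest at 292 ± 40.6 TPM (SD, n = 3). The heavy chains followed, with H2-D1 at 39.6 ± 5.68 TPM, H2-T23 at 32.1 ± 1.74 TPM and H2-K1 at 31.7 ± 2.04 TPM. Only H2-T23 and H2-K1, among neighbours in this order, had overlapping libraries. Below them came Tapbp at 25.4 ± 0.750 TPM, Tapbpl at 9.60 ± 0.933 TPM and Erap1 at 7.66 ± 0.717 TPM. Tap2 was at 5.92 ± 0.752 TPM, Tap1 at 2.51 ± 0.869 TPM and Nlrc5 at 0.396 ± 0.0506 TPM.

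In GFAP-IL6 cortex H2-K1 stood next to H2-D1 and above H2-T23. B2m was at 407 ± 11.1 TPM, H2-D1 at 69.1 ± 7.03 TPM and H2-K1 at 60.8 ± 5.52 TPM, and the libraries of the classical heavy chains overlapped. H2-T23 at 38.8 ± 3.63 TPM overlapped with Tapbp at 35.8 ± 4.06 TPM. Tapbpl (9.66 ± 2.34 TPM), Erap1 (8.73 ± 1.05 TPM) and Tap2 (8.57 ± 0.443 TPM) overlapped with their neighbours, above Tap1 at 4.15 ± 0.683 TPM and Nlrc5 at 1.12 ± 0.340 TPM.

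Ratios between partners of a complex were taken within each library, where the scaling of the library drops out. The summed TPM of H2-K1 and H2-D1 over that of B2m was 0.261, 0.211 and 0.268 in WT and 0.304, 0.308 and 0.344 in GFAP-IL6. The classical heavy chains were thus higher relative to the light chain in each GFAP-IL6 library. The difference in the mean log2 ratio was 0.38, which gave p = 0.1 in an exact permutation test (two-sided). No smaller p is possible with 3 against 3 libraries, and it was 0.267 after Benjamini-Hochberg adjustment over the 4 ratios. The other ratios overlapped between the groups. The difference in mean log2 ratio was 0.13 for H2-K1 over H2-D1 (exact p = 0.2), 0.23 for Tap1 over Tap2 (exact p = 0.6) and -0.50 for Tapbpl over Tapbp (exact p = 0.2). For H2-K1 over H2-D1 it was 0.05 without WT replicate 3, and for Tap1 over Tap2 it was 0.06 without WT replicate 2.

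**Figure D3:**
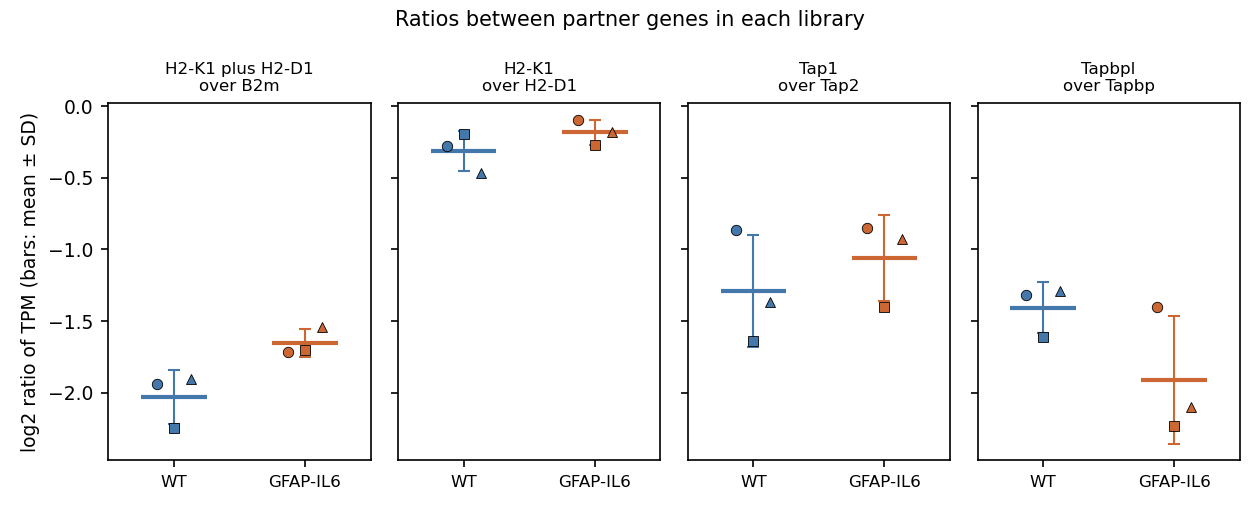
Log2 ratio of TPM between partner genes in each library (y axis, the same in every panel), with points for libraries and bars for the group mean ± SD. The H2-K1 plus H2-D1 over B2m ratio separates the groups, and the other ratios overlap.

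The other genes of the pathway were taken as 6 lists with 65 genes, of which 63 were in the table and 46 were tested. At an adjusted p below 0.05 by edgeR, 6 rose (13.04% of those tested, beside 2.65% of all genes) and 0 fell. These 6 were H2-T24, Psmb8, Irf8, Stat3, Irf9 and Pirb. The median log2 fold change of the 46 was 0.10. Of the 6 called, all but H2-T24 and Irf9 passed in each of the 13 alternatives.

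Of 4 other class I heavy chains tested, 1 rose and 0 fell, with a median log2 fold change of 0.52. This was H2-T24, a nonclassical heavy chain gene, at 9.91 ± 1.48 CPM in WT and 15.8 ± 2.90 CPM in GFAP-IL6. H2-T24 had a log2 fold change of 0.67 ± 0.16 (SE), at an edgeR adjusted p of 0.0458. The adjusted p was 0.0713 without WT replicate 2, 0.127 without GFAP-IL6 replicate 2 and 0.282 without GFAP-IL6 replicate 3. The heavy chains that were not tested had at most 15 counts in a library, and H2-T3 was at 0 in all.

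The class I-like molecules use the same fold for other ligands. None of 3 tested was called, with Fcgrt, the neonatal Fc receptor, at 15.7 ± 2.22 CPM in WT and 15.1 ± 2.94 CPM in GFAP-IL6. Hfe, a regulator of iron uptake, was at 3.37 ± 0.295 and 5.93 ± 1.46 CPM (log2 fold change 0.79 ± 0.22 (SE), adjusted p = 0.0839 by edgeR).

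Among 13 genes of peptide supply (proteasome subunits, activators and cytosolic peptidases), 1 rose and 0 fell, and the median log2 fold change was -0.03. It was Psmb8, a catalytic subunit of the immunoproteasome, whose gene is the coding gene nearest to Tap2 (2072 bases). It was at 2.17 ± 0.311 CPM in WT and 5.08 ± 0.522 CPM in GFAP-IL6, with a log2 fold change of 1.23 ± 0.22 (SE) and an edgeR adjusted p of 0.00673. Psmb9 and Psmb10, the other catalytic subunits of the immunoproteasome, were not called. Their log2 fold changes were 0.78 ± 0.31 (SE, adjusted p = 0.194 by edgeR) and -0.03 ± 0.09 (SE, adjusted p = 0.902 by edgeR). Of 8 genes of ER folding and quality control, 0 passed the test, and their median log2 fold change was 0.04. The chaperones Canx (395 ± 44.9 CPM in WT, 369 ± 20.3 CPM in GFAP-IL6) and Calr (328 ± 31.6 and 348 ± 25.3 CPM), which hold newly made heavy chains, overlapped between the groups.

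Of 17 regulators of class I transcription, 3 rose and 0 fell, with a median log2 fold change of 0.30. Irf8, an interferon regulatory factor of myeloid cells including microglia, was at 4.58 ± 0.456 CPM in WT and 12.1 ± 1.77 CPM in GFAP-IL6 (log2 fold change 1.40 ± 0.17 (SE), adjusted p = 0.000389 by edgeR). Stat3, which carries the signal of the IL6 receptor, was at 47.6 ± 0.784 and 82.7 ± 13.1 CPM (0.80 ± 0.11 (SE), adjusted p = 0.000858 by edgeR). Irf9, the DNA-binding part of the interferon-activated ISGF3 complex, was at 10.1 ± 0.618 and 16.3 ± 2.09 CPM (0.68 ± 0.13 (SE), adjusted p = 0.0120 by edgeR). Without GFAP-IL6 replicate 2 the adjusted p of Irf9 was 0.0708.

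Of 8 receptors that bind class I, only Pirb had enough counts to be tested, and it rose. Pirb, an inhibitory receptor of myeloid cells and some neurons, collected 4, 8 and 0 reads in the WT libraries against 29, 16 and 26 in the GFAP-IL6 libraries. Pirb had a log2 fold change of 3.18 ± 0.52 (SE), at an edgeR adjusted p of 0.00405. It was 4.02 without WT replicate 2 and 2.56 without WT replicate 3, and it passed the test in both. The other receptors had at most 7 counts in a library.

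**Figure D4:**
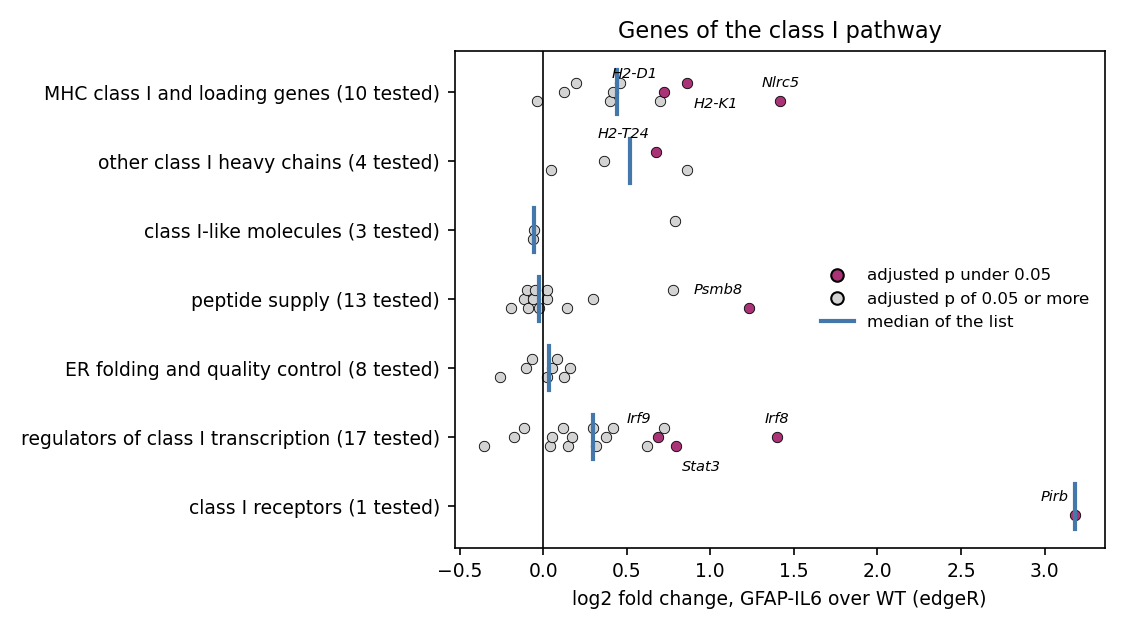
Log2 fold change, GFAP-IL6 over WT (x axis, edgeR), of each tested gene in the 10-gene set and the 6 pathway lists, purple where the adjusted p was under 0.05, with a vertical bar at each list's median. The purple genes outside the set are H2-T24, Psmb8, Irf8, Irf9, Stat3 and Pirb, and the lists of ER folding and peptide supply have medians near 0.

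Most of the microglial and endothelial markers were higher in GFAP-IL6. Of 5 microglial markers, 4 rose (Tmem119, Cx3cr1, Csf1r and Aif1), and the summed level of the 5 was 215 to 255 CPM in WT and 352 to 421 CPM in GFAP-IL6. Without WT replicate 3 the microglial count was 3, as Aif1 lost its call (adjusted p = 0.0642 by edgeR). It was also 3 without any of the GFAP-IL6 libraries in turn, and with every library thinned to the smallest. The defining microglial gene P2ry12 was at 46.3 ± 9.75 CPM in WT and 38.4 ± 4.64 CPM in GFAP-IL6 (log2 fold change -0.27 ± 0.14 (SE), adjusted p = 0.291 by edgeR). Without WT replicate 1 its log2 fold change was -0.41 (adjusted p = 0.0462), and without WT replicate 2 it was -0.12 (adjusted p = 0.668). Of 6 endothelial markers, 4 rose (Cldn5, Pecam1, Flt1 and Esam), and the summed level of the 6 was 113 to 132 CPM in WT and 194 to 222 CPM in GFAP-IL6. Without GFAP-IL6 replicate 1 the endothelial count was 2. The part of both cell types in the class I values was not tested.

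None of 6 markers passed the test for astrocytes (4325 to 5519 CPM in WT, 4884 to 5685 CPM in GFAP-IL6), for neurons (7943 to 8509 and 6901 to 8013 CPM) or for oligodendrocytes (3225 to 5940 and 3246 to 5068 CPM). The neuronal markers mark the tissue as brain. T and NK cell markers were near the floor, at 0.871 to 2.68 CPM in WT and 1.23 to 2.15 CPM in GFAP-IL6. Cd4, which microglia can also express, made up most of the sum in each library but GFAP-IL6 replicate 3, and Cd3d was at 0 in all. Cd3e had 0 counts in each WT library and 3, 1 and 2 counts in GFAP-IL6, and Cd3g had 0 in WT and 1, 0 and 1 in GFAP-IL6. Cd8a was counted 1, 0 and 1 times in the WT libraries against 2, 1 and 3 times in the GFAP-IL6 libraries, and Nkg7 0, 1 and 0 times against 1, 2 and 1 times. By CPM, Cd3e, Cd8a and Nkg7 were higher in each GFAP-IL6 library than in any WT library. They had no more than 3 counts a library, too few to test. For Cd8a and Nkg7 the nearest libraries of the groups had 1 count each, so only library depth set those apart. B cell markers (0.314 to 0.537 and 0.396 to 1.0 CPM) and markers of neutrophils and monocytes (0.174 to 1.13 and 0.924 to 1.90 CPM) were too low to test, and none of 5 blood markers passed (30.5 to 39.5 and 26.0 to 35.7 CPM). None of the 6 striatal or the 2 choroid plexus markers tested passed.

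**Figure D5:**
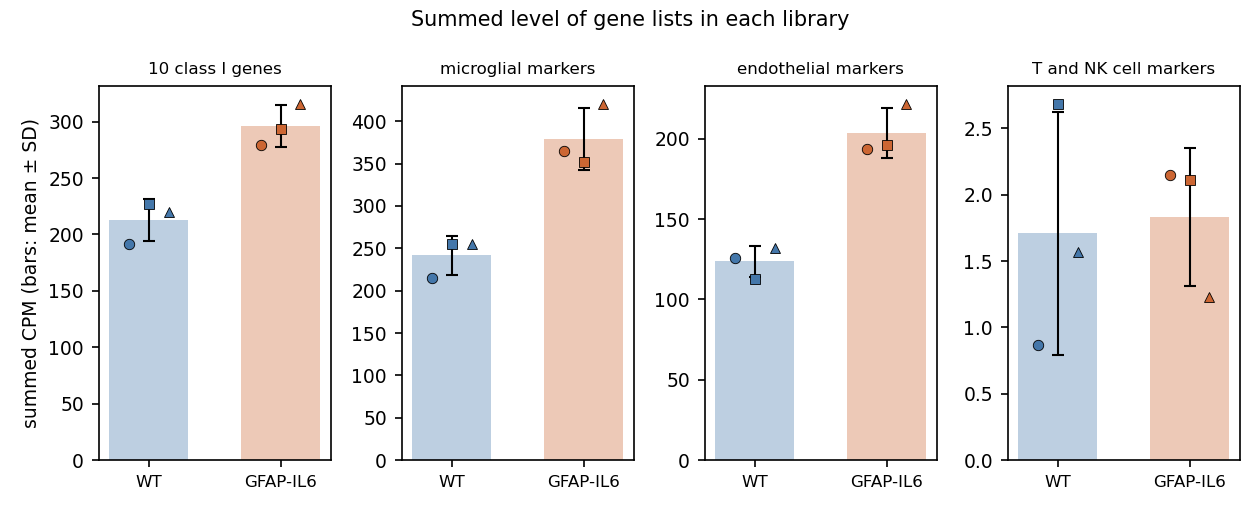
Summed CPM in each library of the 10 class I genes and of the microglial, endothelial and T and NK cell markers, with points for libraries and bars for the group mean ± SD, each panel with its own y axis from 0. The first 3 panels have every GFAP-IL6 library above every WT library, and the T and NK cell markers overlap, at 2.68 CPM or less.

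The genes whose profile over the 6 libraries lay closest to a member were found among 10361 genes by the root mean square difference of centred log2(CPM + 1). For B2m these were Tfcp2l1 (0.0571), Apeh (0.0635) and Fxyd3 (0.0670). Tfcp2l1 was at 12.5 ± 2.03 CPM in WT and 17.6 ± 1.72 CPM in GFAP-IL6, and like B2m it missed the threshold. Without WT replicate 2 the adjusted p by edgeR was 0.0313 for Tfcp2l1, 0.0488 for Apeh and 0.0230 for Fxyd3. For H2-D1 they were Ifngr1 (0.0513), Als2cl (0.0937) and Cflar (0.0950). Ifngr1, which encodes the ligand-binding chain of the interferon gamma receptor, was at 13.9 ± 2.20 CPM in WT and 24.6 ± 3.44 CPM in GFAP-IL6. Without GFAP-IL6 replicate 3 its adjusted p by edgeR was 0.0694. The likeness describes these libraries only, since all 6 values share the genotype contrast.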

How the data were processed

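RNA was extracted from frontal cortex, and mRNA libraries were made with the Illumina TruSeq kit. The counts deposited by the authors are raw counts per gene, with no normalization. The authors used STAR 2.4 on mm10 and counted reads with a unique alignment per GENCODE gene by featureCounts. The submitters' processing notes list hg19 as the build, but the identifiers are of mouse, and 32593 of 33000 matched GENCODE M21 (GRCm38), from which positions were taken. The deposited table also gives a length per gene, another unit, used for TPM. It held 0 rows without a gene name and 0 unused library columns. The design text names 4 replicates a group, and the 3 per group given were analysed.

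GFAP-IL6 was compared with WT by the edgeR 4.0.16 quasi-likelihood F-test in R 4.3.3 (TMM scaling, filterByExpr, Benjamini-Hochberg adjustment over 15341 genes, threshold 0.05), with group as the only term. Values are mean ± SD of TMM-scaled CPM. Scripts were tested on simulated counts. No pair of libraries agreed within sampling noise (chi-square per degree of freedom 2.23 to 20.1 over 15 pairs). The 13 alternatives were median-of-ratios size factors, DESeq2 1.42.0, limma-voom (limma 3.58.1), no filter, a mean CPM of at least 1, a replicate block, thinning to the smallest library, and leaving out each library. Shared sequence was counted as 50-base stretches of GENCODE transcripts. All 10 genes were named. Of each pathway list, genes past the threshold were named, at most the 4 with the lowest adjusted p, or else the 2 with the highest CPM, and the 3 most alike genes (mean CPM of at least 10) for B2m and H2-D1. Psmb9 and Psmb10 were named beside Psmb8, outside this rule. The genes and lists were chosen with earlier results of these data known, so they are no independent support. Libraries made with the pooled protocol were not used here. A further microglial marker is not reported here, and the microglial values are over the other 5.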

Additional observations from a re-analysis of the deposited data

How the results depend on the processing

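H2-K1 and H2-D1 stayed past the threshold in all 13 alternatives, Nlrc5 in 9, Tapbp passed in 5 and B2m in 4, and Tap1, Tap2, H2-T23, Erap1 and Tapbpl in none. Over the 10 genes and 13 alternatives, 116 log2 fold changes kept their direction and call, 9 gained a call, 4 lost one, and 1 changed sign, that of Tapbpl (-0.24 to 0.10 with a library left out, positive only without GFAP-IL6 replicate 2). Of the 10 genes, 3 were called, 5 without the low-count filter, and 2 to 5 with a library left out. Over all genes, 439 were called, 1154 without the filter (801 higher, 353 lower), and from 187 (without GFAP-IL6 replicate 3) to 1061 (without WT replicate 1, 692 higher and 369 lower) with a library left out. It was 282 without GFAP-IL6 replicate 2. Of the pathway genes, 6 were called, 12 without the filter, and 4 to 9 with a library left out. The cause of these shifts was not tested. The median log2 fold change of the 10 was 0.41 to 0.51 with a library left out. With a library left out, the log2 ratio differences ranged over 0.27 to 0.44 (H2-K1 plus H2-D1 over B2m), 0.05 to 0.19 (H2-K1 over H2-D1), 0.06 to 0.44 (Tap1 over Tap2) and -0.76 to -0.34 (Tapbpl over Tapbp). Thinned to the smallest library, that of Tap1 over Tap2 was 0.017. Nlrc5 rests on 10 to 38 counts a library.

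Libraries of equal replicate number in the 2 groups deviated together only weakly (correlations 0.0147 to 0.0996 over 3 pairs). Pairs of unequal number had correlations of -0.0770 to 0.0524. Deviations from a mean of 3 libraries depend on each other, so these values cannot settle whether libraries were paired. The numbers were taken as names. A replicate block gave 750 genes called (594 higher, 156 lower) and 5 of the 10, adding B2m and Tapbp.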

Other observations

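The genes around the class I cluster were looked at after the values were known. On chromosome 17, from 33915899 to 36032855 (2.12 Mb, GRCm38), the span holds 6 of the 10 genes and 94 other tested genes. Of these 94, 9 rose at an adjusted p below 0.05 by edgeR (9.57%, beside 2.65% of all genes tested) and 0 fell (beside 0.209%), with a median log2 fold change of 0.11. They were the complement gene C4b (log2 fold change 4.80), the class II chains H2-Ab1 (1.72, adjusted p = 0.0108) and H2-Eb1 (1.46, adjusted p = 0.0221), which present peptides to CD4 T cells, and Notch4 (0.83, adjusted p = 0.0129), Gpsm3 (1.22, adjusted p = 0.0309), Clic1 (0.81, adjusted p = 0.0368), Aif1, Psmb8 and H2-T24. Of the 13 alternatives, C4b and Psmb8 were called in 13, H2-Ab1 in 12, Notch4 in 11, Clic1 in 10, H2-Eb1 in 9, Aif1 and H2-T24 in 8 and Gpsm3 in 6. Without WT replicate 3 the adjusted p was 0.0523 for H2-Eb1, 0.106 for Clic1, 0.0642 for Aif1 and 0.0534 for Gpsm3. For Gpsm3 it was 0.0704 without WT replicate 2 and 0.0876 by DESeq2. Without GFAP-IL6 replicate 3 it was 0.0912 for H2-Ab1 and 0.0632 for Notch4. The count was 17 without the low-count filter, 15 without WT replicate 1, 5 without WT replicate 3, 3 without GFAP-IL6 replicate 2 and 2 without GFAP-IL6 replicate 3. Aif1 is also 1 of the 5 microglial markers, of which 4 rose, and the part of microglia in these values was not tested.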
